A study of Mus musculus with 12 samples.

Results

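The effect of sciatic nerve injury on RNA recovered with tagged sensory neuron ribosomes was set against its effect on the RNA of the whole dorsal root ganglion (DRG), transcript by transcript. For each transcript the log2 ratio of injured to uninjured was taken in the immunoprecipitate (IP) and in the input, and the input value was subtracted from the IP value. A positive difference means a larger ratio of injured to uninjured in IP. Transcripts with at least 10 summed estimated counts in each of the 4 groups were compared. They numbered 4928 of the 101744 transcripts listed, of which 35917 had a count in any sample. The smallest of the 4 summed counts was 10 for 328 of the compared transcripts, and it was 9 for another 340 that were not compared.

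All mice carried the genotype RPL22HA+/+;Advillin-Cre+, with injured or uninjured sciatic nerve. IP and input were each sampled with and without injury, which makes 4 groups of 3 samples. Every group carried the tag and the Cre, so no group shows what the antibody recovers without tagged ribosomes. The sources used here do not give the time after injury, the animals' age and number, or whether tissue was pooled. The labels call the input total RNA, yet the extraction text given for it describes the immunoprecipitation, so the preparation of the input RNA is uncertain.

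In RiboTag mice a Cre recombinase exchanges the end of the gene for a large-subunit ribosomal protein, RPL22, for a version with an HA epitope. Advillin-Cre is active in peripheral sensory neurons, so an anti-HA antibody pulls down their ribosomes and the RNA on them. A DRG also holds satellite glia, Schwann cells, fibroblasts, vascular cells and macrophages, and their RNA is part of a lysate of the ganglion. After a peripheral nerve is cut or crushed, sensory neurons switch on growth and stress genes, and glia and immune cells of the ganglion respond as well.

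Within a group the totals of the 3 samples spanned at most 0.449% of their mean, and the 3 were counted as 1 sample. Injury effects therefore have no replicate check, and no p-values are given. The summed totals were 571897 counts in IP injured, 635927 in IP uninjured, 4753793 in input injured and 5055830 in input uninjured. The compared transcripts held 78.1% to 85.6% of these counts, with medians of 31 and 33 counts in the IP groups and 69 and 77 in the input groups. Levels are given in CPM, counts relative to the size of the scaled library, in which 1 summed count was worth 0.344 to 0.959 CPM. The scaling multiplied library totals by 1.82 in injured and 1.71 in uninjured IP, and by 0.557 and 0.575 in input. CPM are therefore not shares of all counts, and levels and ratios of IP to input depend on this scaling. Shares in percent are of unscaled counts. All intervals are 95% intervals. They cover counting error alone and treat each read as independent. Reads from PCR products that carry no molecular identifiers do not count independent molecules, so the intervals may be too narrow even for that error. The files give transcript IDs without gene names, and 0 of them matched the gene tables used here. Marker genes of neurons, glia and immune cells, pathway lists and sequences were therefore not examined, and transcripts are given by ID. In such bulk samples, fewer cells of a type and less RNA per cell cannot be told apart.

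The difference of injury effects had a median of 0.04 on the log2 scale, with quartiles at -0.51 and 0.60. It was at least 1 in size, with a counting interval that excluded 0, for 999 transcripts, which is 20.3% of those compared. The effect was higher in IP for 539 of them (10.9%) and lower in IP for 460 (9.33%). With libraries scaled by their totals alone the median difference was 0.17 in place of 0.04, and 65.6% of the counted transcripts were higher in IP in place of 54.0%. Differences below are therefore relative to the scaling. Of the 999, 512 also kept the sign of the difference over all 81 ways to take 1 sample from each group. They were 10.4% of the compared transcripts, 298 of them higher in IP (6.05%) and 214 lower (4.34%). For these counted transcripts the sample ranges are called apart, and for the other 487 they overlapped. A further 338 transcripts kept their sign in this way but were not counted. When the samples were taken as replicates, edgeR counted 247 higher and 121 lower in IP (67.1% higher) at an adjusted p of 0.05. It tested a wider set of 9959 transcripts, and 251 of its 368 were among the 999.

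Injury changed more of the compared transcripts in IP than in input. An injury effect of at least 2-fold with an interval that excluded no change was found in IP for 1048 transcripts (21.3%), 548 higher (11.1%) and 500 lower (10.1%). In input it was found for 579 (11.7%), 319 higher (6.47%) and 260 lower (5.28%). The IP had fewer counts per transcript, and the SD of the log2 effect across transcripts was 0.84 in IP and 0.67 in input. The share changed in IP was also above that in input at a depth where counting error is small: among the 87 transcripts with at least 300 counts in every group it was 27.6% in IP and 1.15% in input.

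The 2 sets of changed transcripts overlapped in part. Of the 1048 changed in IP, 197 (18.8%) changed the same way in input, 17 (1.62%) changed the opposite way, and 618 (59.0%) differed by less than 1.5-fold in input. Most of all compared transcripts also differed by less than 1.5-fold in input, with quartiles of the log2 effect at -0.43 and 0.30. Transcripts that rose in IP had a matching change in input more often than those that fell, 138 of 548 (25.2%) against 59 of 500 (11.8%), a difference that was not tested. Over all compared transcripts, 6.47% rose and 5.28% fell in input. Read from the other side, the 197 were 34.0% of the 579 changed in input, and 224 of the 579 (38.7%) differed by less than 1.5-fold in IP. Most of all compared transcripts were under that limit in IP as well, with quartiles at -0.55 and 0.51. Of the transcripts that rose in input, 43.3% also rose in IP, and of those that fell in input, 22.7% also fell in IP. Over all compared transcripts, 11.1% rose and 10.1% fell in IP.

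**Figure D1:**
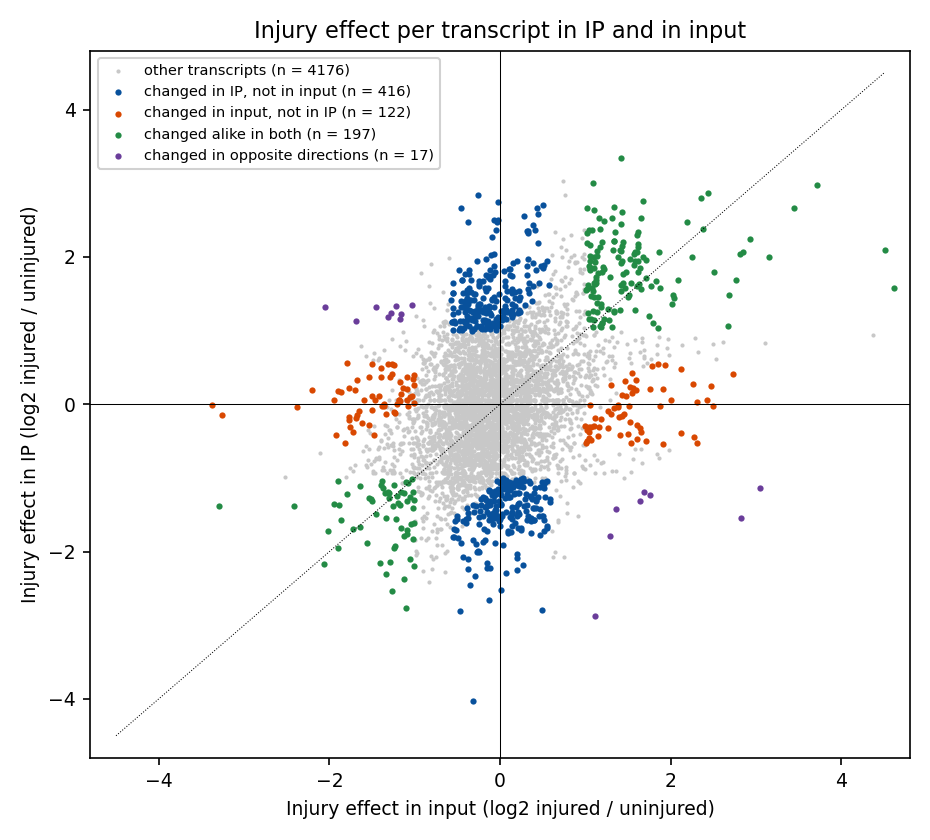
Each point is 1 of the 4928 transcripts, with the log2 ratio of injured to uninjured in input on the horizontal axis and in IP on the vertical axis; the dotted line marks equal effects. Blue points (n = 416) changed in IP and not in input, orange points (n = 122) changed in input and not in IP, green points (n = 197) changed the same way in both, and purple points (n = 17) changed in opposite directions.

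A transcript was taken as changed in IP and not in input where the difference was counted, the IP effect was at least 2-fold with an interval that excluded no change, and the input differed by less than 1.5-fold. This held for 416 transcripts (8.44%), of which 210 were higher and 206 lower after injury. With library totals alone, 62.1% were higher in place of 50.5%. With the samples as replicates, edgeR placed 129 higher and 63 lower of its 9959 tested transcripts in this class (67.2% higher). Sample ranges were apart in 137 that rose and 117 that fell. In 71.9% of the 416 the samples agreed within counting noise in all 4 groups, against 77.6% of all compared transcripts.

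The 210 that rose in IP and not in input tended to be more abundant in the ganglion and less enriched in IP than the compared transcripts as a whole. Their median input level was 113 CPM, against 25.8 CPM over all compared transcripts, but 102 of the 210 (48.6%) were below 100 CPM. Of the 210, 66 (31.4%) had an input level of at least 1000 CPM, as did 308 of all 4928 (6.25%). Their log2 ratio of IP to input, averaged over both conditions, had a median of -2.13, against 0.31 for all compared transcripts, and 37 of the 210 were above that 0.31. Another scaling moves this ratio by the same amount in every transcript. Their summed share of the IP was 1.35% in uninjured ganglia (interval 1.32% to 1.38%, samples 1.30% to 1.39%) and 4.55% in injured ganglia (4.499% to 4.607%, samples 4.45% to 4.69%). In input they held 17.3% and 15.5%. Since the transcripts were chosen for this rise, the shares describe their weight and do not test it.

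The 206 that fell in IP and not in input were close to the compared transcripts as a whole in abundance. Their median input level was 28.1 CPM, 108 of them (52.4%) were below 30 CPM against 54.5% of all, and 6 reached 1000 CPM. Their median log2 ratio of IP to input was 0.64, with 125 of the 206 above the 0.31 of all compared transcripts. That ratio averages both conditions. It was 1.32 in uninjured samples, against 0.27 for all, and -0.11 in injured samples, against 0.26 for all. The 206 made up 7.12% of the uninjured IP (interval 7.06% to 7.18%) and 2.62% of the injured IP (2.58% to 2.66%). In input their share was 1.39% and 1.32%. By sample, the IP share was 7.03% to 7.17% in uninjured and 2.50% to 2.68% in injured ganglia. Since the transcripts were chosen for this fall, the shares describe their weight and do not test it.

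**Figure D2:**
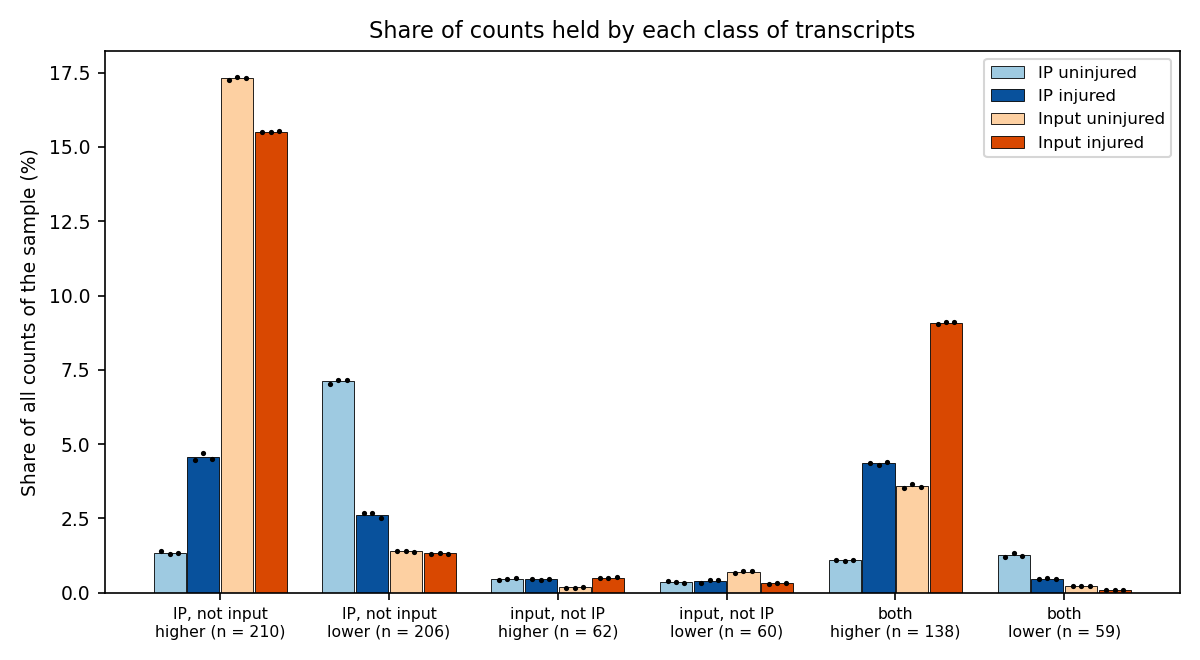
Bars give the mean share of all counts (percent, axis from 0) held by the transcripts of each class, and dots the 3 samples of each group. The 210 transcripts that rose in IP and not in input went from 1.35% to 4.55% of the IP while holding 17.3% and 15.5% of the input, and the 206 that fell went from 7.12% to 2.62% of the IP.

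The largest effects were then read among transcripts of this class with at least 100 counts in every group, sample ranges apart and samples agreeing within counting noise. These 4 were chosen after their values were seen. ENSMUST00000141384.2 had 4563, 4528 and 4340 CPM in the injured IP samples and 690, 678 and 634 CPM in the uninjured ones. Its input samples held 220, 209 and 186 CPM with injury and 205, 206 and 213 CPM without. All IP samples with injury lay far above those without, and the input ranges overlapped. The log2 effect was 2.75 in IP and -0.02 in input, a difference of 2.77 (interval 2.56 to 2.97).

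ENSMUST00000037023.9 shows the same pattern in a transcript with a low ratio of IP to input. It had 599, 527 and 610 CPM in injured and 176, 152 and 171 CPM in uninjured IP samples. In input its summed level was 16132 CPM with injury and 16766 CPM without, so IP held far less of it than input in both conditions. The log2 effect was 1.80 in IP and -0.06 in input, a difference of 1.86 (1.62 to 2.10).

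Among those that fell, ENSMUST00000103147.5 had 135, 112 and 94.98 CPM in injured and 475, 560 and 564 CPM in uninjured IP samples. Its input samples lay between 1270 and 1409 CPM with injury and between 1439 and 1478 CPM without. The injured and uninjured samples did not overlap in IP or in input, but the input effect was small, with a log2 value of -0.12 (-0.19 to -0.06). The difference was -2.10 (-2.39 to -1.81). ENSMUST00000099172.5 had 371, 374 and 282 CPM in injured IP samples and summed to 1271 CPM in uninjured IP. In input it had 172, 188 and 176 CPM with injury and 216, 237 and 197 CPM without. Its IP groups were well apart, and its input was slightly lower with injury, by -0.28 (-0.45 to -0.11) on the log2 scale. The difference was -1.61 (-1.85 to -1.37).

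The reverse class, changed in input and not in IP, was smaller and rested on fewer counts. It held 122 transcripts (2.48%), 62 higher and 60 lower after injury. With library totals alone, 37.4% were higher in place of 50.8%. Intervals widened by the spread between samples left 42 transcripts. With the samples as replicates, over 9959 transcripts tested, the class held 16 in edgeR, 27 in limma-voom and 35 in DESeq2. Sample ranges were apart in 19 that rose and 21 that fell. Samples agreed within counting noise in all 4 groups for 41.8% of the 122, well under the 77.6% of all compared transcripts. Of the 122, 96 had a smallest count below 30, 3 reached 100 and 0 reached 300. Together the 62 that rose in input went from 0.179% to 0.510% of its counts, and from 0.461% to 0.449% of the IP. The 60 that fell in input went from 0.707% to 0.313% of its counts, and from 0.357% to 0.393% of the IP. Averaged over both conditions, their median log2 ratio of IP to input was 0.93 for those that rose and 0.61 for those that fell. All compared transcripts had 0.31. The order depended on the condition. In uninjured samples the medians were 1.71 and -0.26, against 0.27 for all, and in injured samples 0.16 and 1.23, against 0.26 for all. The ratio uses the input counts that the class was chosen on.

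The examples were again chosen after the values were seen, for large input effects among members with sample ranges apart and samples that agreed. Without those conditions the log2 input effects of the class ran from -3.38 to 2.73. The lowest was that of ENSMUST00000235864.2, whose sample ranges overlapped and whose samples did not agree. ENSMUST00000028225.12 had 188, 205 and 202 CPM in injured and 32.4, 39.0 and 36.1 CPM in uninjured input samples. In IP it had 11.9, 21.1 and 16.8 CPM with injury and 7.96, 14.8 and 19.7 CPM without. The input groups were apart and the IP ranges overlapped at a low level. Its difference was -2.22 (-3.27 to -1.18). ENSMUST00000161553.2 had 40.9, 31.7 and 35.1 CPM in injured and 10.3, 6.19 and 5.16 CPM in uninjured input, and 11.5 and 16.5 CPM summed over injured and uninjured IP. Its log2 effect was 2.31 (1.63 to 2.99) in input and -0.52 (-1.57 to 0.53) in IP, where it had 12 and 18 counts. Its difference was -2.83 (-4.09 to -1.58).

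Of those that fell in input, ENSMUST00000023750.9 had 6.32, 8.91 and 7.43 CPM in injured and 42.4, 21.7 and 40.2 CPM in uninjured input samples. Its IP samples overlapped, at 28.8, 20.2 and 48.9 CPM with injury and 30.2, 22.1 and 33.0 CPM without. The difference was 2.40 (1.41 to 3.39). ENSMUST00000029451.12 had the same order, with 5.29 CPM in injured and 20.3 CPM in uninjured input against 24.0 and 22.9 CPM in IP, and a difference of 2.01 (0.85 to 3.17).

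**Figure D3:**
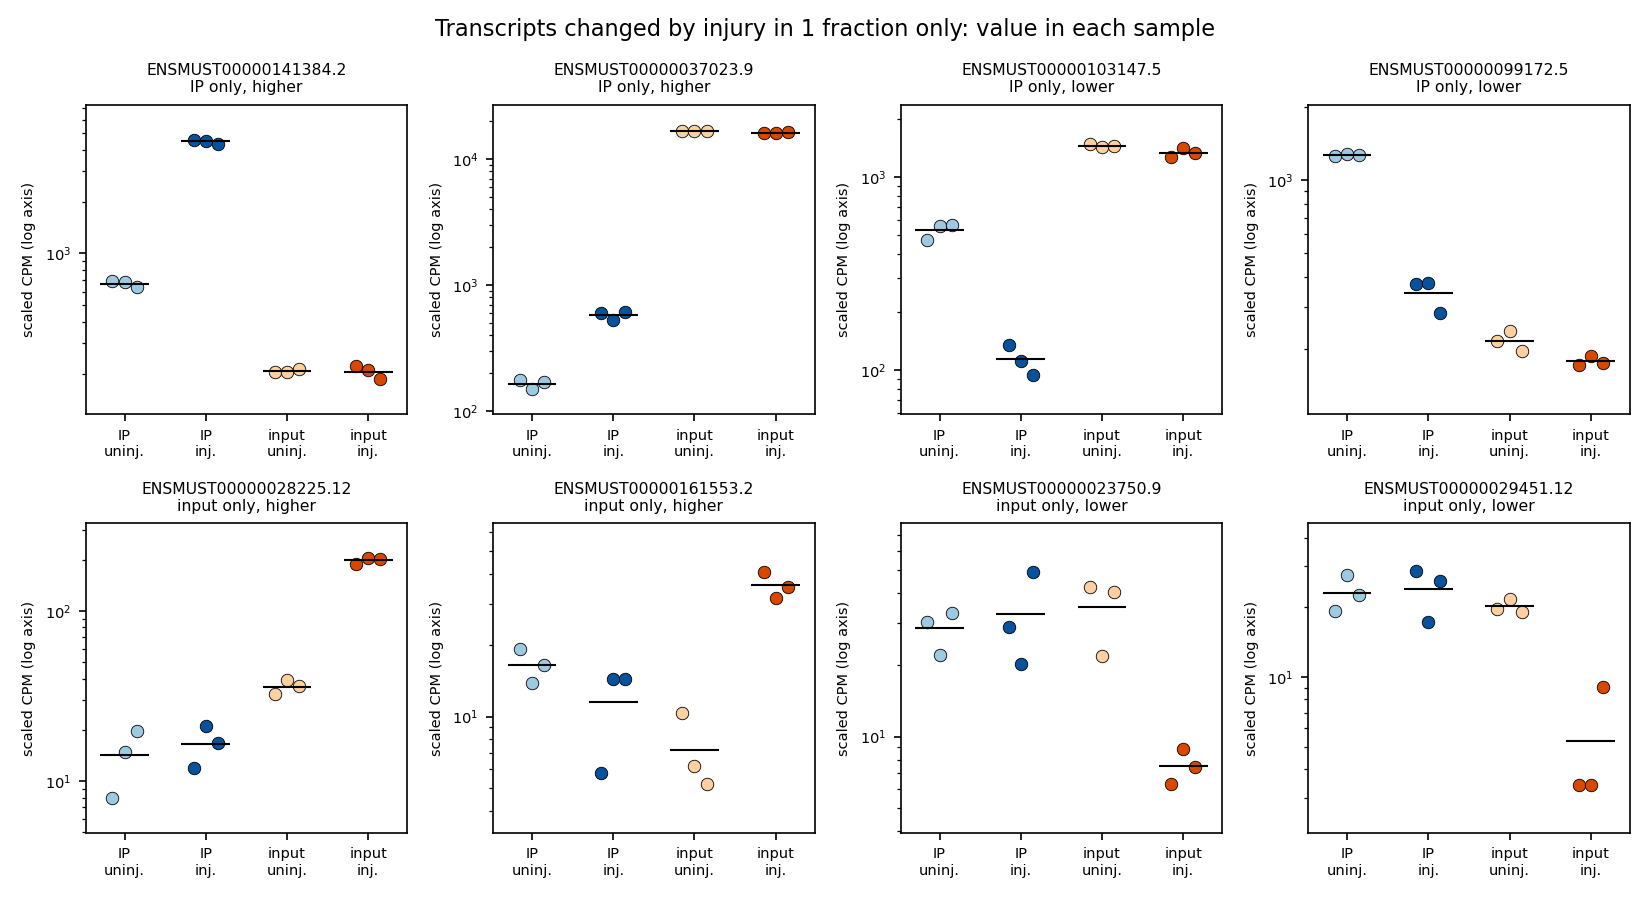
Scaled CPM (log axis) of the 8 transcripts described above in each of the 12 samples; points are samples and bars the mean of the 3. In the upper row the IP groups are apart while input differs by less than 1.5-fold, and in the lower row the input groups are apart while IP differs by less than 1.5-fold.

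Transcripts that changed the same way in both fractions numbered 197 (4%). The 138 that rose held 1.10% of the uninjured and 4.35% of the injured IP, and 3.58% and 9.09% of the input. The 59 that fell went from 1.26% to 0.469% of the IP and from 0.222% to 0.0834% of the input. The median difference of effects was 0.36 for those that rose and -0.08 for those that fell. In 17 of the 197 the difference was itself counted and had sample ranges apart.

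Opposite changes of at least 2-fold were found in 17 transcripts (0.345%), 9 of which rose in IP and fell in input, and 8 fell in IP and rose in input. Samples agreed within counting noise in all 4 groups for 4 of the 17. In 3 of the 17, every same-numbered set of samples showed both directions, and 2 of those 3 were higher in IP. A further 415 counted transcripts, 241 higher and 174 lower in IP, did not meet the limits of any of these classes.

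The transcripts with the largest differences of all rested on few counts. ENSMUST00000095254.12 had the highest difference, 3.38 (2.48 to 4.29). Its IP samples held 17, 17 and 14 counts with injury and 20, 0 and 0 without, and its input samples 21.6, 0 and 17.8 counts with injury and 66.7, 57.4 and 54.0 without. A single uninjured IP sample held all of that group's counts. ENSMUST00000235864.2, with 3.37 (2.09 to 4.66), also had all its IP counts in 1 sample of each group, 19.97 with and 21 without injury, and its sample ranges overlapped.

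At the low end, ENSMUST00000125153.10 had a difference of -4.37 (-5.34 to -3.40). It held 26, 4.83 and 15.5 counts in injured and 47.7, 44.8 and 47.7 in uninjured IP samples, against 26.1, 30.04 and 27.5 in injured and 12.5, 0 and 0 in uninjured input. ENSMUST00000148438.8 had -4.19 (-5.26 to -3.11), with 97.4, 74.1 and 76.2 counts in injured and 8, 11 and 14 in uninjured input. Its IP held 7.07, 0 and 5.84 counts with injury and 8.55, 6.38 and 14.6 without. In both, the summed counts fell in IP and rose in input, and at least 1 sample stood at 0.

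The median counting SE of the difference was 0.55 among the 3023 transcripts whose smallest count was 10 to 30, and 0.09 among the 87 with at least 300. The share counted was 23.0% at a smallest count of 10 to 30, 16.5% at 30 to 100, 12.9% at 100 to 300 and 18.4% above, so it did not fall steadily with depth. Sample ranges were apart for 42.3% of the counted transcripts in the shallow set, and for all 16 in the deep one, of which 7 were higher in IP and 9 lower. The SD of the difference was 0.95, 0.74, 0.70 and 0.83 in the same order of depth. Across transcripts, the IP and input effects correlated at r = 0.32 in the shallow and r = 0.48 in the deep set (rho = 0.26 and 0.36), which describes these libraries only, since transcripts are not replicates.

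**Figure D4:**
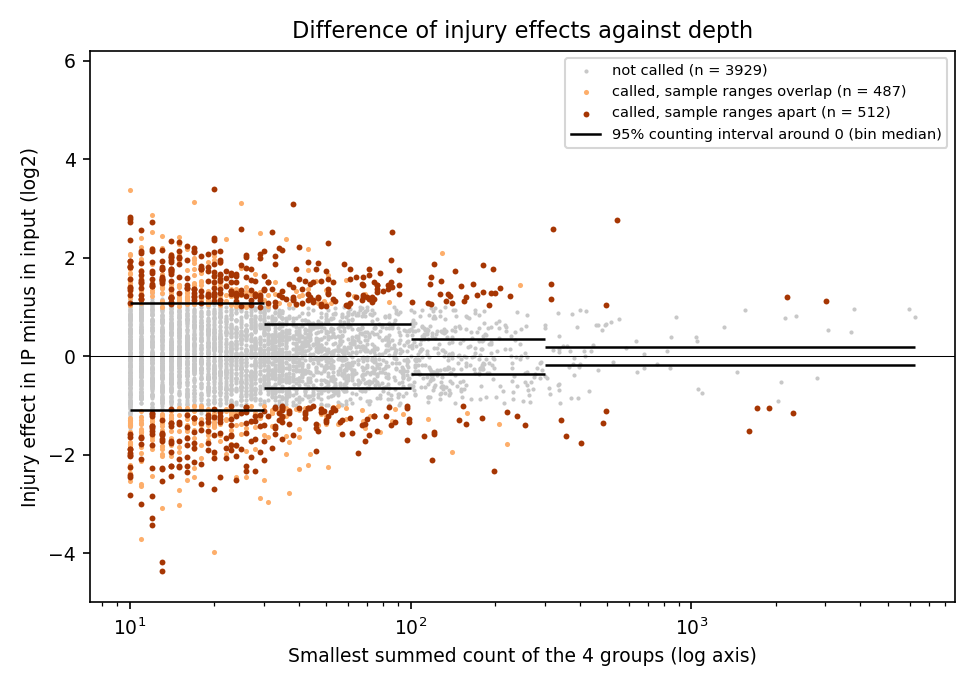
Difference of log2 injury effects (IP minus input) of each transcript against its smallest summed count in the 4 groups (log axis); black lines mark a 95% counting interval around 0 from the median SE of each depth range. Grey points were not counted, and the 512 dark points with sample ranges apart reach across the whole depth range, while the 487 light points lie mostly at low counts.

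The difference of injury effects varied with how a transcript was split between IP and input. Transcripts were ranked by the log2 ratio of IP to input, averaged over both conditions, and cut in 8 bins of 616. In the lowest bin, the least enriched in IP, the median difference was 0.68 (quartiles 0.17 and 1.21). In the highest bin it was -0.30 (quartiles -0.81 and 0.27). In between it stood at 0.18, 0.07, 0.04, -0.08, -0.08 and -0.16. The gap between the end bins was 0.98. It depended on the condition the ratio was taken from. With bins of the uninjured ratio the medians went from 0.83 to -0.66, a gap of 1.48, and with bins of the injured ratio from 0.56 to 0.20, a gap of 0.36. The difference is itself the injured ratio minus the uninjured ratio, so a cut on either one moves the bins in opposite directions. The lowest bin had a positive median under all 3 cuts, while the sign of the highest bin changed with the cut.

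The end bins stood in the same order in each set of same-numbered samples. The lowest bin had medians of 0.63, 0.73 and 0.66 and the highest -0.35, -0.30 and -0.26. In bins of the averaged ratio, most of the difference came from the IP. The median IP effect went from 0.65 in the lowest bin to -0.39 in the highest. The median input effect stayed between -0.20 and -0.01. The share of transcripts counted as higher in IP was 33.1% in the lowest and 5.19% in the highest bin, and the share counted as lower was 3.90% and 16.1%. Of the 210 transcripts that rose in IP and not in input, 100 were in the lowest bin. The part of each fraction depended on the cut. With bins of the uninjured ratio, the highest bin had median effects of -0.58 in IP and 0.13 in input. With bins of the injured ratio they were -0.10 in IP and -0.31 in input.

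Both quantities come from the same 12 columns, and a transcript little enriched in IP passes the minimum count only if it is abundant in input. With at least 50 counts in both IP groups, which left 1224 transcripts in 4 bins of 306, the medians were 0.55, -0.01, -0.23 and -0.29. Over all 4928 transcripts the ratio correlated with the difference at r = -0.31 (rho = -0.28), and over these 1224 at r = -0.44 (rho = -0.41). These are descriptions across transcripts that share libraries and depth.

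**Figure D5:**
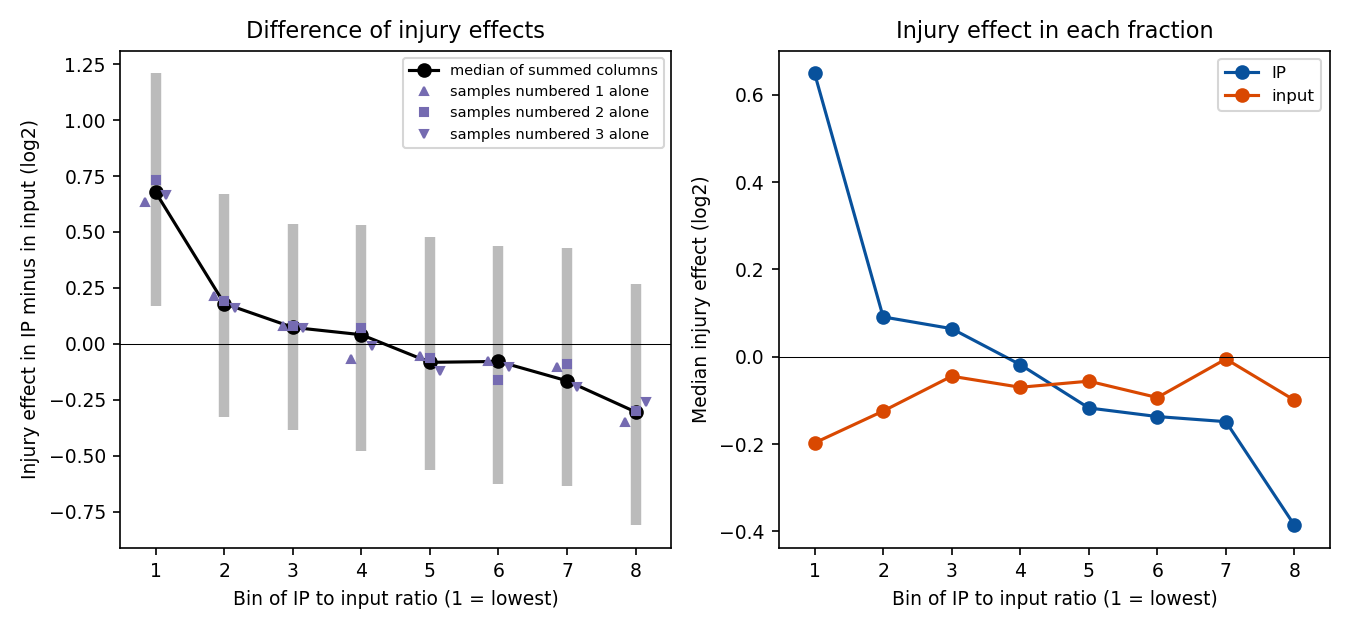
Left, median difference of log2 injury effects in 8 bins of the IP to input ratio (black; grey bars are quartiles over 616 transcripts, purple marks the medians from samples 1, 2 and 3 alone). Right, the median injury effect in IP (blue) goes from 0.65 to -0.39 across the bins while that in input (orange) stays between -0.20 and -0.01.

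Among the 308 with an input level of at least 1000 CPM, the difference was above 0 for 260 (84.4%), with a median of 0.85 (quartiles 0.29 and 1.25). They were far less represented in IP, with a median log2 ratio of IP to input of -4.76. Their median injury effect was 0.82 in IP and -0.15 in input. As a set they held 59.9% of the uninjured and 59.4% of the injured input. In IP they held 15.3% in uninjured (interval 15.2% to 15.4%) and 21.2% in injured ganglia (21.1% to 21.3%). By sample, the IP share was 15.2% to 15.4% in uninjured and 21.1% to 21.4% in injured ganglia. Of the 308, 115 (37.3%) were counted as higher in IP and 10 (3.25%) as lower, against 10.9% and 9.33% of all compared transcripts. The 263 transcripts from 300 to 1000 CPM went the same way to a lesser degree. Their difference was above 0 for 70.7%, with a median of 0.43, and 22.1% were counted as higher and 6.46% as lower. Among the 805 transcripts below 10 CPM in input, the median difference was -0.09, and 5.22% were counted as higher and 9.81% as lower. A share of all counts also depends on the other transcripts. The 2 most abundant transcripts of the IP, not among the 308, held 24.2% of the uninjured and 17.6% of the injured IP. What the higher share of the 308 in injured IP came from was not tested.

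At the other end stood the 2 most abundant transcripts of the IP, which were singled out after their values were seen. Together they held 24.2% of the uninjured and 17.6% of the injured IP, against 0.0742% and 0.0965% of the input. ENSMUST00000038863.9 had a summed level of 49212 CPM in injured and 72008 CPM in uninjured IP. Its input samples held 987, 863 and 641 CPM with injury and 569, 345 and 854 CPM without, so the input ranges overlapped. The difference was -1.04 (-1.14 to -0.95), and over single samples it ran from -2.08 to -0.12. ENSMUST00000217116.2 had the same order, with a difference of -0.91 (-0.99 to -0.82). Its input samples held 719, 885 and 1102 CPM with injury and 684, 956 and 465 CPM without. Within each input group, samples that were higher in 1 of these transcripts were lower in the other. The 2 IP levels fell by 0.55 and 0.54 on the log2 scale. Taken 1 transcript at a time, the input effects of 0.50 and 0.36 were within the spread of the input samples. By sample, the summed input share of the 2 was 0.0950% to 0.0974% in injured and 0.0720% to 0.0758% in uninjured ganglia. Samples of a group were counted as 1, so this spread is no replicate check.

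The comparison leaves out transcripts that were short of counts in 1 fraction. Another 6502 transcripts reached 10 counts in both input groups but not in both IP groups. Of these, 1032 reached it in injured IP alone, 877 in uninjured IP alone and 4593 in neither. In the other direction 547 reached it in both IP groups but not in both input groups, 133 of them in injured input alone, 167 in uninjured input alone and 247 in neither. No difference of effects was computed for these.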

How the data were processed

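RNA was measured in 12 samples from mouse DRG in 4 groups of 3. Per the labels, a barcoding kit for nanopore sequencing of PCR-amplified cDNA was used. Values in the deposited table are the authors' estimated counts per transcript, and 2.98% to 11.2% of them per sample had decimals. Minimap2, Salmon, GRCm39 and mm39 appear in the submitters' processing notes; the sources used here give no roles or versions for them.

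The planned edgeR test with 3 replicates was kept as an alternative, because samples within a group were almost equal in total and differed by close to counting noise for most transcripts. They were summed, rounded to whole numbers and counted as 1 sample; nothing says they came from separate animals, and the labels' numbers were not taken as pairs. Libraries were scaled with TMM factors of the sums (edgeR 4.0.16, R 4.3.3) over the transcripts passing filterByExpr. Effects and intervals (normal approximation on the log scale, 95%) were computed in Python 3.11.15. Intervals of shares are exact (Clopper-Pearson). Samples were taken to agree where each of the 4 groups had a chi-square p over 0.01. Single-sample differences had 0.5 counts added. The code was tested on simulated data. Alternatives used limma 3.58.1 and DESeq2 1.42.0.

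The naming rule was the 2 largest differences in each direction; other IDs were chosen after their values were seen. Classes and bins were chosen with earlier results of these data known. The 21 gene lists were not used, since the IDs matched no gene table.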

Additional observations from a re-analysis of the deposited data

Results flagged for a closer look

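In 3 transcripts every same-numbered set of samples moved one way with injury in IP and the opposite way in input, by at least 2-fold in the summed counts of both. The difference was not tested. The transcripts higher in IP and lower in input numbered 2, and 1 was lower in IP and higher in input. ENSMUST00000023157.6 had 9, 11 and 9 counts in injured and 3, 5 and 4 in uninjured IP, and 6, 3 and 2 in injured and 7.002, 8 and 13 in uninjured input. Its difference of log2 injury effects was 2.55 (95% counting interval 1.15 to 3.95). ENSMUST00000027916.13 had 6, 10 and 8 counts in injured and 2, 4 and 4 in uninjured IP, and 8, 8 and 1.5 in injured and 16, 15 and 22.9 in uninjured input, a difference of 2.78 (1.46 to 4.09). Samples of these 2 agreed within counting noise. ENSMUST00000125153.10, with a difference of -4.37, is described above, and its samples did not agree within counting noise in every group. Groups of 3 samples were too small to look for single outlying samples.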

How the results depend on the processing

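The count of transcripts with a different effect (999), changed in IP and not in input (416), changed in input and not in IP (122), changed in both or in opposite directions (214) and with sample ranges apart (512) moved as follows. A minimum of 20 counts gave 513, 219, 52, 121 and 327, and 50 counts 165, 80, 15, 38 and 131. With no minimum and 0.5 counts added they were 2867, 864, 313, 711 and 1286. Intervals widened by the spread between samples left 628 different and 42 changed in input alone. Taking the samples as replicates, over 9959 transcripts tested at a Benjamini-Hochberg adjusted p of 0.05, edgeR gave 368, 192 and 16 in the first 3 classes, limma-voom 332, 159 and 27, and DESeq2 544, 257 and 35. Of edgeR's 368, 251 were among the 999, all in the same direction. With the replicate number as a block, edgeR gave 251, 134 and 12. Over 388 transcripts, same-numbered samples correlated at -0.16 to 0.09 in their deviations, and different-numbered samples at -0.07 to 0.19. Deviations close to counting noise cannot show whether those numbers mark pairs. A 4-fold limit gave 141, 53 and 23, with 87 ranges apart. Only transcripts whose samples agreed gave 649, 299, 51, 140 and 434. Leaving out 1 sample gave 820 to 996, 338 to 406, 106 to 134, 178 to 219 and 505 to 586. The share higher in IP among the different ones was 67.1% in edgeR, 59.6% in limma-voom, 68.0% in DESeq2 and 67.7% with the block, against 54.0%, and among those changed in IP alone 67.2%, 59.7%, 70.8% and 70.9%, against 50.5%. With 1 sample left out the former was 45.8% to 62.0%, lowest without an IP uninjured sample and highest without an input injured one. The gap between the end bins of the IP to input ratio (0.98), whose alternatives were added after the data were seen, was 1.12 and 1.19 with minimums of 20 and 50, 1.05 in limma-voom, 0.93 for agreeing samples, 1.48 and 0.36 with bins of the uninjured and the injured ratio alone, and 0.89 to 1.12 with 1 sample left out. For the 16 named transcripts, 331 of 356 alternative values kept direction and side of the limit, 24 lost the call, 1 gained it and 0 reversed. Sums per gene were not run, since IDs are not paired with genes. Depth limits the IP most: for the 3023 transcripts with a smallest count of 10 to 30, a median SE of 0.55 makes each side of the 95% interval wider than the log2 limit of 1.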

Other observations

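Some transcripts were at 0 in 1 sample of a group and at 10 or more counts in another sample of the same group. This held in at least 1 group for 728 of the 4928 transcripts (14.8%). It held for 253 of the 999 with a different injury effect (25.3%) and 475 of the other 3929 (12.1%). By class it was 80 of the 416 changed in IP and not in input (19.2%), 58 of the 122 changed in input and not in IP (47.5%), 35 of the 197 changed alike in both (17.8%) and 13 of the 17 changed in opposite directions (76.5%). Among the 512 with sample ranges apart it was 33 (6.45%), and among the 436 with at least 100 counts in every group 17 (3.90%). The classes were chosen from the same counts, so these shares are descriptions.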
